A study of Homo sapiens with 6 samples.

Results

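A set of 6 genes that cells are known to switch under stress was followed by name across the series: HMOX1, TRIB3, CEBPB, CEBPG, GDF15 and BTG2. These are 6 of the 2128 genes listed in the tables of normalised expression, each with 1 row. They were picked by symbol with the difference between the groups already known, so their values are given as a description and without a test of that difference. HMOX1 stands for the oxidative arm, TRIB3, CEBPB and CEBPG for the integrated stress response, BTG2 for the p53-linked arm, and GDF15 is a known output of both of the latter.

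The cells were SNU668, an established line of gastric signet-ring carcinoma cells, a form of stomach cancer whose cells carry a large mucin vacuole. There were 3 libraries titled shControl, whose genotype is labelled WT, and 3 titled shGPER, labelled as a knockdown of GPER, the G protein-coupled estrogen receptor encoded by GPER1. All 6 came from total RNA of the same line; no treatment, time point or hairpin sequence is given, nor is it said whether replicate libraries were grown separately, so that the spread below may be technical. The targeted gene served as a check of the labels. GPER1 stood at 11.04, 11.00 and 10.41 TPM in shControl and at 1.83, 2.41 and 2.47 TPM in shGPER. TPM are a gene's share of all transcripts in a library, corrected for transcript length and scaled to a fixed total.

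Heme oxygenase 1, the product of HMOX1, breaks heme down to biliverdin, carbon monoxide and iron. Its gene is held down by the heme-sensing repressor BACH1 and driven by NRF2 when oxidants or electrophiles accumulate. In the integrated stress response, kinases that sense heme shortage, amino acid shortage, viral RNA or misfolded protein phosphorylate the translation factor eIF2alpha. General translation then slows while the factor ATF4 is made, and ATF4, with C/EBP partners, activates genes such as TRIB3, CEBPB, CEBPG and GDF15. The factor p53 responds to DNA damage and raises, among others, BTG2 and GDF15.

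RefSeq (GRCh38.p14) gave promoter windows for 5 of the 6 genes (all but HMOX1). The 250 bases upstream of each RefSeq start were searched on both strands for 7 motifs. The gene bounds given further below are from GENCODE release 29, so a window can lie within them. GDF15 and BTG2, which are both known p53 targets and moved the same way, differ in the layout of this stretch, and each is shown with its matches to the TATA box (TATAAA), the CCAAT box (CCAAT) and the core of the cyclic AMP response element (TGACG) in capitals.
GDF15, chr19:18385908-18386157, plus strand: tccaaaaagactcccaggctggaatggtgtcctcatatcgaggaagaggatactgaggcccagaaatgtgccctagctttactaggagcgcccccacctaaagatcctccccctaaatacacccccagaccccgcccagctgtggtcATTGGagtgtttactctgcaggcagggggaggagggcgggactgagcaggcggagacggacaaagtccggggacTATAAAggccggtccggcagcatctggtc
BTG2, chr1:203305269-203305518, plus strand: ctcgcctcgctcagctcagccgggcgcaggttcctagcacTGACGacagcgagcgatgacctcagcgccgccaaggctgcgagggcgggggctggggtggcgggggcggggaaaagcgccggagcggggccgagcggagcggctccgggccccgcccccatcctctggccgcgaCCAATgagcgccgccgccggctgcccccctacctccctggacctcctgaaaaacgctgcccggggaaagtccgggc
The GDF15 stretch holds TATAAA with its first base 29 bases before the start, and 1 inverted CCAAT box. The BTG2 stretch holds no TATAAA, but 1 CCAAT box and 1 TGACG. Among all 35116 windows of the RefSeq table, 10.7% hold TATAAA, 32.0% CCAAT and 21.2% TGACG.

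The C/EBP genes CEBPB and CEBPG, which moved in opposite directions, are shown as short stretches because their second annotated starts lie downstream of the first. The capitals mark TATAAA and TGACG for CEBPB, and for CEBPG the letters TGATGCAA, a composite site that C/EBP and ATF factors such as ATF4 are known to bind as dimers.
CEBPB, chr20:50190791-50190818, plus strand: gggccgccctTATAAAtaaccgggctca
CEBPB, chr20:50190763-50190790, plus strand: ggggccggcgTGACGcagcggttgctac
CEBPG, chr19:33374061-33374088, plus strand: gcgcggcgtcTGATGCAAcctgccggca
TGATGCAA was found in 0.772% of all windows, and CEBPG was the 1 gene of the 5 with a match. The TGACG of CEBPB is also the start of its match to TGACNNNGC, the core of the antioxidant response element, which 10.9% of all windows hold. None of the windows of the 5 genes held the AP-1 motif TGANTCA, which 6.57% of all windows hold. With so few windows, this absence is not informative. The GC box GGGCGG, held by 42.6% of all windows, was present in every window searched except the first window of CEBPG. These windows were at 74.8 to 79.2% GC, and that of GDF15 at 58.4%, beside a median of 58% over all windows. The windows of TRIB3 overlap and share the same 2 GC boxes, and TRIB3 matched no other motif of the 7. The short stretches of CEBPB and CEBPG lie in their second windows. CCAAT also had 1 match in the second window of CEBPB and 2 inverted matches in the first window of CEBPG, which are not shown. These matches describe letters only.

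The 6 genes summed to 210, 215 and 223 TPM in the shControl libraries and to 697, 799 and 861 TPM in the shGPER libraries. Of these, 5 were higher in every shGPER library than in any shControl library, and CEBPG was lower in every one. Of the 1651 tested genes (those with at least 1 TPM in at least 3 libraries), 97.4% separated the groups in the same way, 47.3% upward and 50.1% downward, so separation by itself does not set these genes apart. In the fit to all tested genes (limma on log2(TPM + 1), Benjamini-Hochberg adjusted p under 0.05), 47.8% of genes were called higher, 50.6% lower and 98.4% either way. The 6 genes were called in the directions given, which follows from how they were picked. All 6 were above 1 TPM in all 6 libraries, so the filter fixed no direction.

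**Figure D1:**
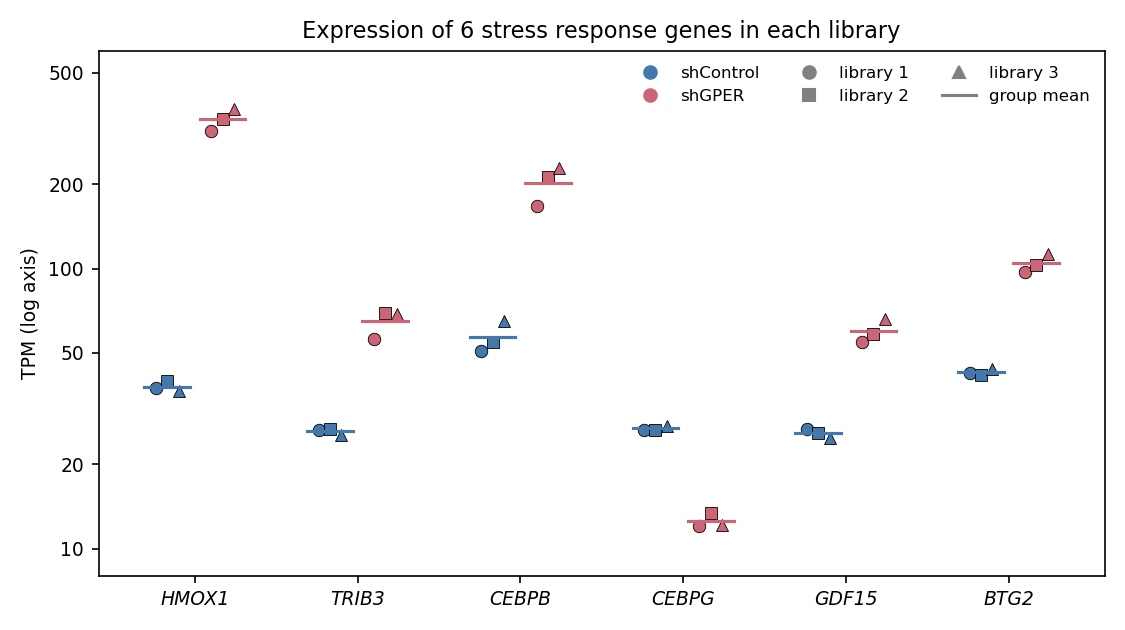
TPM on a log axis of the 6 genes in each library, shControl in blue and shGPER in red. Marker shapes give the library number (the labels state no pairing by number), and a line marks each group mean. HMOX1 moves from the third highest of the 6 in shControl (37.9 TPM) to the highest in shGPER (341 TPM), and CEBPG is the one gene whose red points lie below the blue.

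HMOX1 (ENSG00000100292; GRCh38 chromosome 22, 35380361 to 35394214, plus strand) had the largest difference of the 6. Its level was 37.33, 39.72 and 36.56 TPM in shControl and 309.65, 341.36 and 372.52 TPM in shGPER. The lowest shGPER library was thus 7.80 times the highest shControl library. The means, 37.9 ± 1.65 and 341 ± 31.4 TPM (SD, n = 3 each), stand in a ratio of 9.01, and the fitted log2 fold change was 3.13 (SE 0.07). By level HMOX1 was at rank 239 of the 1651 tested genes in shControl and at rank 15 in shGPER. By size of the rise on the log2(TPM + 1) scale it came at rank 2, a scale that understates the rise of genes at low TPM. It made up 16.4 to 18.5% of the summed TPM of the 6 genes in shControl and 42.7 to 44.4% in shGPER.

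TRIB3 (ENSG00000101255; chromosome 20, 362835 to 397559, plus strand) encodes a tribbles pseudokinase that binds AKT and ATF4 and is itself an ATF4 target. It was at 26.54, 26.68 and 25.42 TPM in shControl and at 56.09, 69.46 and 68.69 TPM in shGPER. The first shGPER library was the lowest of its group, at 2.10 times the highest shControl library. Mean TRIB3 was 26.2 ± 0.691 TPM in shControl and 64.7 ± 7.51 TPM in shGPER (SD, n = 3 each), a ratio of 2.47 (log2 fold change 1.27, SE 0.09).

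CEBPB (ENSG00000172216; chromosome 20, 50190734 to 50192689, plus strand) encodes C/EBP beta, a leucine zipper activator of inflammatory, differentiation and stress genes. It was at 50.79, 54.57 and 65.00 TPM in shControl and at 167.24, 213.26 and 228.13 TPM in shGPER. The groups were far apart, the lowest shGPER library being 2.57 times the highest shControl library, though CEBPB varied most of the 6 within a group (coefficient of variation 13.0% in shControl and 15.6% in shGPER). Mean CEBPB was 56.8 ± 7.36 TPM in shControl and 203 ± 31.7 TPM in shGPER (SD, n = 3 each), a ratio of 3.57 (log2 fold change 1.81, SE 0.13). The annotation places an antisense gene, CEBPB-AS1, across CEBPB on the other strand. The sources used here do not give whether counting used strand, so reads of the pair may not be told apart.

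CEBPG (ENSG00000153879; chromosome 19, 33373330 to 33382686, plus strand) encodes C/EBP gamma, a short family member that forms dimers with other C/EBP proteins and with ATF4. It was at 26.61, 26.46 and 27.50 TPM in shControl and at 12.00, 13.37 and 12.16 TPM in shGPER. Every shGPER library was below every shControl library, and the lowest shControl value was 1.98 times the highest shGPER value. Mean CEBPG was 26.9 ± 0.562 and 12.5 ± 0.749 TPM (SD, n = 3 each), 2.15 times higher in shControl (log2 fold change -1.05, SE 0.07). In a bulk library, fewer cells that express a gene and less of its RNA per cell cannot be told apart.

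TPM are scaled by transcript length, which does not correct for GC content. The levels of CEBPB and CEBPG are set side by side with that limit. CEBPB TPM stood at 1.91, 2.06 and 2.36 times CEBPG TPM in the shControl libraries. In the shGPER libraries the factor was 13.9, 16.0 and 18.8. The ranges did not overlap, and the mean ratio was 2.11 ± 0.231 in shControl and 16.2 ± 2.42 in shGPER (SD, n = 3 each). On the log2 scale the mean ratio went from 1.07 ± 0.16 to 4.01 ± 0.21, a difference of 2.94, or 7.65-fold. The sum of both genes rose less than the ratio, from 83.6 ± 7.88 to 215 ± 32.0 TPM. CEBPB kept a similar share of the summed TPM of the 6 genes (24.2 to 29.1% in shControl, 24.0 to 26.7% in shGPER). That of CEBPG went from 12.3 to 12.7% down to 1.41 to 1.72%. Part of this drop lies in the sum, which rose, as mean CEBPG itself went from 26.9 to 12.5 TPM. The difference in log2 ratio fell to 0.88 once each library's trend over transcript GC content had been taken out; transcript GC content was 66.2% for CEBPB and 41.9% for CEBPG.

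**Figure D2:**
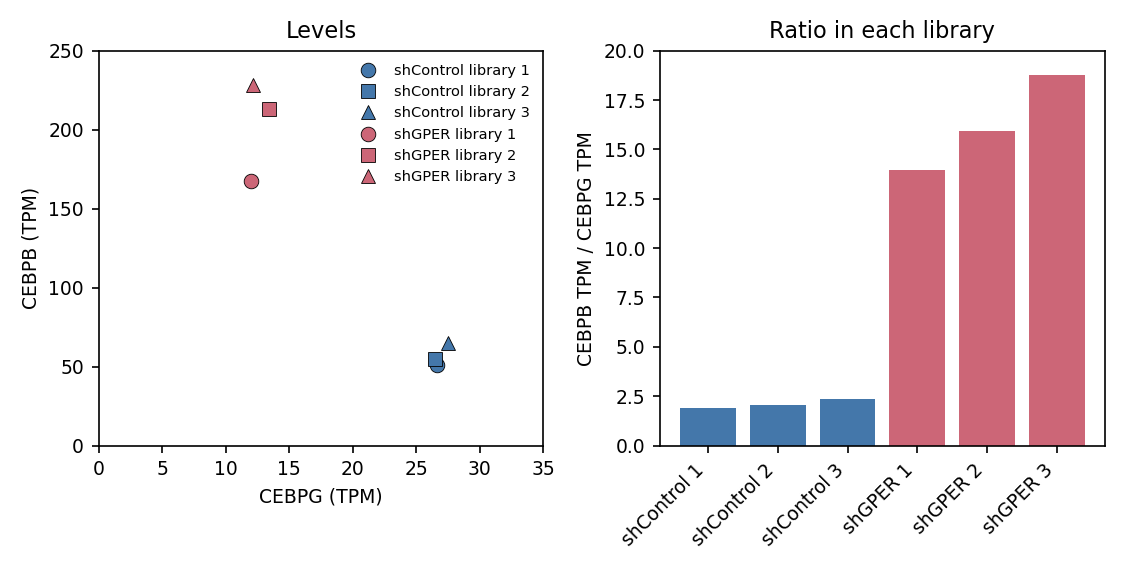
Left, CEBPB against CEBPG level in TPM, 1 point per library. Right, the ratio of CEBPB to CEBPG TPM in each library as bars from 0. The shControl libraries lie at 1.91 to 2.36 and the shGPER libraries at 13.9 to 18.8.

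GDF15 (ENSG00000130513; chromosome 19, 18374731 to 18389176, plus strand) encodes a secreted stress cytokine of the TGF-beta superfamily that signals through GFRAL and RET. It was at 26.63, 25.94 and 24.82 TPM in shControl and at 54.47, 58.41 and 66.32 TPM in shGPER. The lowest shGPER library was 2.05 times the highest shControl library. Mean GDF15 was 25.8 ± 0.913 and 59.7 ± 6.03 TPM (SD, n = 3 each), a ratio of 2.32 (log2 fold change 1.18, SE 0.08), the smallest rise of the 5 genes that were higher. The microRNA gene MIR3189 lies within GDF15 on the same strand.

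BTG2 (ENSG00000159388; chromosome 1, 203305491 to 203309602, plus strand) encodes an antiproliferative protein that brings the CCR4-NOT deadenylase to messenger RNAs. It was at 42.31, 41.83 and 43.83 TPM in shControl and at 97.44, 103.12 and 112.75 TPM in shGPER. The groups were separated by a factor of 2.22 between their nearest libraries. Mean BTG2 was 42.7 ± 1.04 and 104 ± 7.74 TPM (SD, n = 3 each), a ratio of 2.45 (log2 fold change 1.27, SE 0.07). BTG2 and TRIB3 therefore had fold changes of like size, from levels that differed in both groups.

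In shControl the order of levels was CEBPB, BTG2, HMOX1, CEBPG, TRIB3 and GDF15. CEBPG and TRIB3 overlapped there, as did TRIB3 and GDF15, while the ranges of the other neighbours did not. In shGPER the order was HMOX1, CEBPB, BTG2, TRIB3, GDF15 and CEBPG, and TRIB3 and GDF15 alone overlapped among neighbours. Within shGPER, the first library had the lowest value of all 5 genes that were higher. The third library stood at 1.20, 1.22, 1.36, 1.22 and 1.16 times the first for HMOX1, TRIB3, CEBPB, GDF15 and BTG2, and at 1.01 times for CEBPG. The median of this factor was 1.19 over the 789 genes called higher, 1.02 over the 836 called lower and 1.09 over all tested genes. The gap between the third and the first library was thus not particular to the 5 genes. The second library was not compared across all genes.

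Direction went with base composition in this table. Of the tested genes with 60% GC or more in their transcripts, 89.5% were called higher, with a median log2 fold change of 1.14. HMOX1 (60.8% GC), GDF15 (61.5%), TRIB3 (62.0%) and CEBPB (66.2%) were in this class. Of those under 45% GC, which included CEBPG (41.9%), 9.27% were called higher and the median was -0.93. BTG2 (51.6% GC) was in the class of 45 to 55%, of which 35.9% were called higher with a median of -0.79. With the GC trend of each library removed, the log2 fold changes were 2.22 for HMOX1, 1.33 for BTG2, 0.72 for CEBPB, 0.29 for TRIB3, 0.23 for GDF15 and -0.16 for CEBPG. All 6 kept their direction, and 31.5% of genes were then called higher and 31.1% lower. The trend was estimated from a table made up largely of genes that separate the groups, and its part in these values was not tested.

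**Figure D3:**
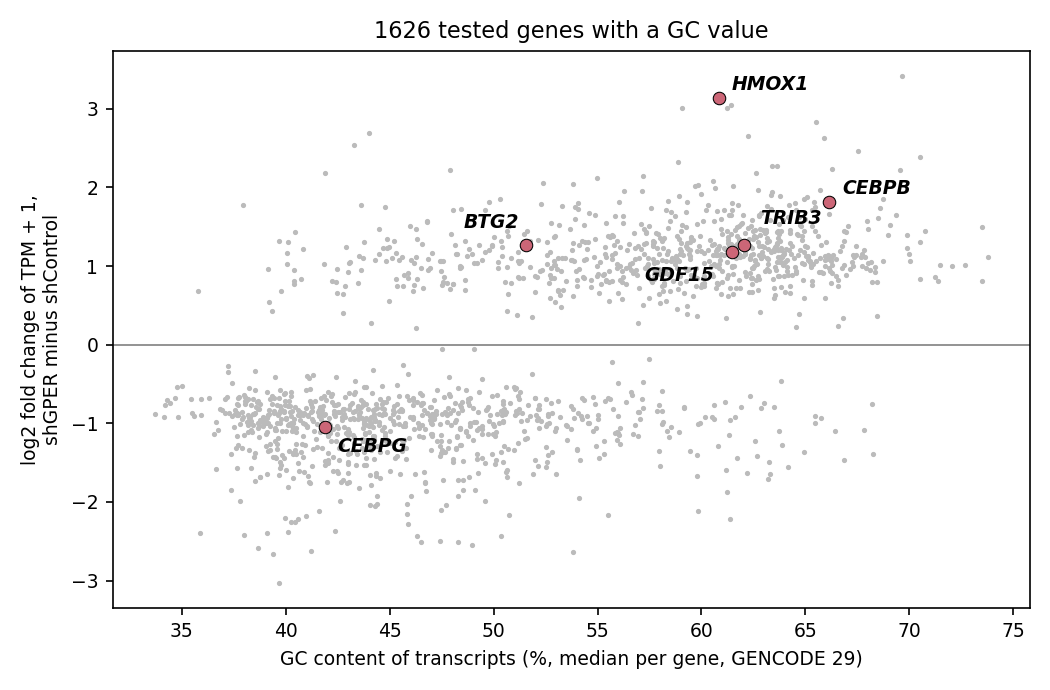
Log2 fold change of TPM + 1 (shGPER minus shControl) against the median GC content of each gene's annotated transcripts, for the 1626 tested genes with a GC value; the 6 genes are marked in red. HMOX1, CEBPB, TRIB3 and GDF15 lie above 60% GC, BTG2 at 51.6% and CEBPG at 41.9%; the band around 0 is nearly empty across the table.

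The genes around these 6 were read from 11 lists of 445 distinct genes, written with earlier results of these data known. Their values are likewise given as a description. Apart from the 6, the table held 21 of them. Of the 20 tested, 6 were called higher (47.8% of all tested genes were) and 14 lower (50.6%), and their median log2 fold change was -0.86, beside -0.49 over all tested genes. With the GC trend removed, 6 were called higher and 9 lower, beside 31.5% and 31.1% of all genes in that fit. Most genes that define the pathways, among them NFE2L2, KEAP1, ATF4, DDIT3, CDKN1A and MDM2, were not analysed here. The list of heat shock genes had no member in the table.

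Around HMOX1, the NRF2 and antioxidant list had 4 other tested genes, of which 3 fell and 1 rose. Over all tested genes, 50.6% were called lower and 47.8% higher. BACH1, the heme-sensing repressor of HMOX1, was at 7.64, 7.36 and 8.01 TPM in shControl and at 2.07, 2.61 and 1.65 TPM in shGPER. It was thus lower in every shGPER library (log2 fold change -1.49, SE 0.13). GPX1, the glutathione peroxidase that reduces hydrogen peroxide, fell from 285 ± 11.5 to 121 ± 2.65 TPM (SD, n = 3 each), although at 62.6% GC it belongs to the class in which most genes were called higher. PIR, the iron-binding protein pirin and a known NRF2 target, rose from 15.3 ± 0.544 to 38.2 ± 0.893 TPM. MSRB3, a methionine sulfoxide reductase, fell from 4.38 to 2.43 TPM. That call was lost with the GC trend removed (log2 fold change -0.16). GPX1 then stood at -2.23, PIR at 1.74 and BACH1 at -0.64.

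All 3 other tested genes of heme and iron handling fell, in a table where 50.6% of tested genes were called lower. UROS, which makes uroporphyrinogen III in heme synthesis, was at 68.86, 65.79 and 70.23 TPM in shControl and at 22.86, 24.35 and 24.81 TPM in shGPER. All shGPER values were below all shControl values (log2 fold change -1.47, SE 0.06). ABCB10, a mitochondrial transporter that supports heme synthesis, fell from 9.24 to 3.36 TPM, and CYBRD1, a membrane ferric reductase, from 37.7 to 20.9 TPM. With the GC trend removed, UROS stayed at -1.47 and CYBRD1 stood at -0.85, whereas ABCB10 shrank to -0.51.

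Of the integrated stress response list, 2 other genes were tested. EIF2AK1 encodes the heme-regulated kinase HRI, which phosphorylates eIF2alpha. It was at 46.07, 47.81 and 48.28 TPM in shControl and at 16.13, 16.99 and 18.34 TPM in shGPER (log2 fold change -1.42, SE 0.07). The kinase gene was thus lower in every shGPER library, as was CEBPG, while TRIB3, CEBPB and GDF15 were higher. BBC3, the BH3-only protein PUMA, which p53 and the C/EBP-homologous factor CHOP are known to induce, rose from 16.2 ± 1.32 to 39.9 ± 3.09 TPM (SD, n = 3 each). Without the GC trend EIF2AK1 was at -0.87 and BBC3 at 0.19. Both tested genes of the unfolded protein response list fell, in a table where 50.6% of tested genes were called lower. TMBIM6, the ER membrane protein BAX inhibitor 1, went from 280 ± 3.32 to 124 ± 0.730 TPM, and MBTPS2, the protease that completes the cleavage of ATF6, from 26.0 to 14.1 TPM. MBTPS2 lost its call with the GC trend removed, at a log2 fold change of 0.08, and TMBIM6 shrank from -1.17 to -0.71.

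Of all tested genes 47.8% were called higher, and in the p53 list 2 of 3 other tested genes rose. These were BBC3, as above, and IER5, an immediate early gene, from 24.6 ± 1.25 to 58.4 ± 3.62 TPM (SD, n = 3 each). GADD45B, a stress sensor that acts on p38 and JNK signaling, was at 16.52, 20.03 and 18.10 TPM in shControl and at 4.54, 5.35 and 5.14 TPM in shGPER. It was lower in every shGPER library (log2 fold change -1.68, SE 0.10), and its value was -2.52 with the GC trend removed. Among the relatives and partners of BTG2, TOB2, an antiproliferative protein of the same family, rose from 11.3 ± 0.801 to 27.5 ± 2.15 TPM. The tested CCR4-NOT genes fell, in a table where 50.6% of tested genes were called lower. They were the deadenylases CNOT7, from 36.7 to 14.8 TPM, and CNOT8, from 30.2 to 16.0 TPM, and the subunit CNOT10, from 19.7 to 11.9 TPM. Of the 26 genes on the list of BTG2 relatives and partners, 5 were in the table, BTG2 included. CNOT7 and CNOT10 lost their calls with the GC trend removed (-0.42 and 0.07), and TOB2 shrank from 1.21 to 0.40.

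Beside GDF15, the list of its receptor and of TGF-beta family ligands held TGFB3, which rose by 1.76 on the log2 scale (SE 0.11; 3.11 ± 0.337 and 13.0 ± 1.38 TPM, SD, n = 3 each), and GDF7, listed at 0.18 to 0.23 TPM in shControl and 0.57 to 0.58 TPM in shGPER, too low to be tested. Of the hypoxia list, EPAS1, which encodes the hypoxia-inducible factor HIF-2alpha, rose from 230 ± 5.79 to 558 ± 42.7 TPM, and the histone demethylase gene KDM3A fell from 11.9 to 5.77 TPM. The call of KDM3A was lost with the GC trend removed (-0.10), and EPAS1 shrank from 1.27 to 0.65.

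**Figure D4:**
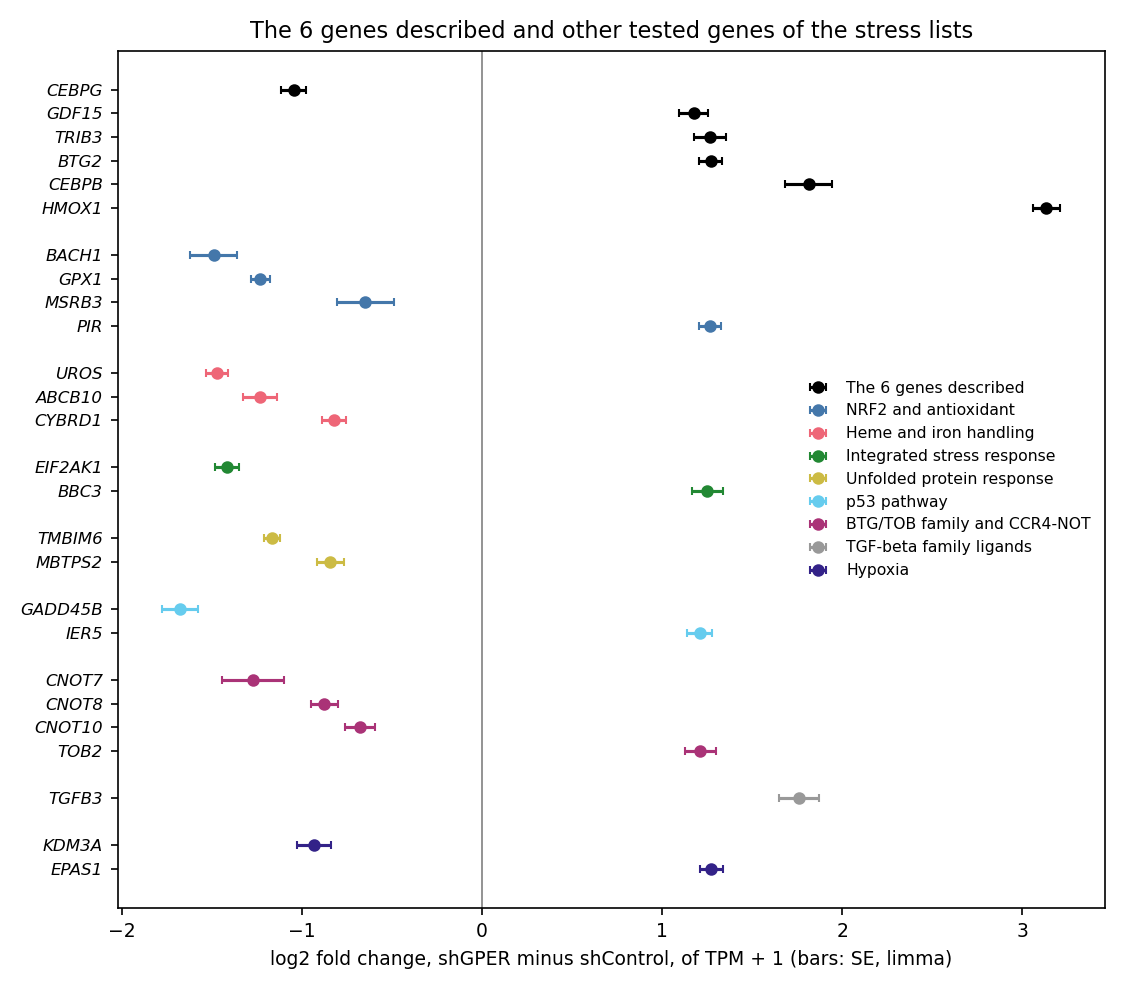
Log2 fold change of TPM + 1 (shGPER minus shControl) with its standard error from limma, for the 6 genes and the 20 other tested genes of the lists, each shown under the first list that holds it. The 6 genes range from -1.05 for CEBPG to 3.13 for HMOX1; GADD45B, at -1.68, is the lowest point and all 3 heme and iron genes lie left of 0.

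The annotation terms in the deposited tables gave wider groups. Of 30 other tested genes with a term on oxidative stress, reactive oxygen species or hydrogen peroxide, 17 were called higher and 11 lower, with a median log2 fold change of 0.94. Over all tested genes these figures were 47.8% higher, 50.6% lower and a median of -0.49. Of 21 with a term on endoplasmic reticulum stress or the unfolded protein response, 10 were higher and 11 lower (median -0.71). Terms on p53 or DNA damage had 59 other tested genes, 19 higher and 39 lower (median -0.87). Terms on heme or iron had 26, 12 higher and 14 lower (-0.88), and terms on starvation 9, 3 higher and 6 lower (-1.06). The median GC content was highest for the first of these groups, at 57.8%, and lowest for p53 and DNA damage, at 47.1%. The table's terms for HMOX1 name heme binding and iron homeostasis, those of TRIB3 name ER stress and those of BTG2 name p53, whereas GDF15, CEBPB and CEBPG carry none of the terms searched.

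For each gene the 3 protein-coding genes with the most similar profile over the 6 libraries were taken, by Euclidean distance between log2(TPM + 1) values set to each gene's shControl mean. For CEBPG, CMTM4 lay at a distance of 0.05 log2 units, LRRFIP1 at 0.08 and HIPK3 at 0.09. BTG2 was closest to the calponin gene CNN2 (0.07), VAT1 (0.09) and MNX1 (0.09), and GDF15 to the placental growth factor gene PGF (0.07), STK40 (0.08) and DAPK3 (0.09). TRIB3 was closest to PNMA6A (0.07), ZBTB4 (0.08) and ABTB2 (0.09). CEBPB was near the PI3K subunit gene PIK3R2 (0.09), with TGFB3 (0.19) and HIC1 (0.21) farther off. HMOX1 had no partner so close, with RTN2 at 0.21, SYP at 0.42 and VGF at 0.52, all 3 of them at a mean under 3 TPM in shControl. Since nearly all genes of the table separate the 2 groups, likeness over 6 libraries reflects mainly the size of the difference.

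Of the gastric epithelial markers checked, 2 of 11 were in the table, CDH1 and TFF1, at a summed 5.08 to 6.67 TPM in shControl and 0.68 to 3.02 TPM in shGPER. Fibroblast markers (4 of 6 listed) summed to 7.02 to 9.91 and 31.9 to 33.2 TPM, most of the latter being COL1A1, and endothelial markers (2 of 5) to 2.09 to 2.52 and 7.52 to 8.71 TPM. No leukocyte or erythroid marker was analysed here. The part of these shifts in the values above was not tested.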

How the data were processed

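RNA-seq of 3 shControl and 3 shGPER libraries of SNU668 cells was used, grouped by the titles in the labels. The authors deposited 1 table per library, with a TPM value for each gene. Per the labels' protocols, libraries came from total RNA with a stranded ligation kit for mRNA; fastp, HISAT2 and RSEM are named, without versions, with the build hg38 in the submitters' processing notes. The tables list 2128 genes, which make up 4.66 to 6.42% of the full TPM scale, so most of each library was not analysed here; the sources used here do not give how these genes were selected. TPM keep no read depth, so no counting error is given.

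Log2(TPM + 1) was fitted with limma 3.58.1 (R 4.3.3; trend, no robust prior, no covariate) on 1651 genes with at least 1 TPM in at least 3 libraries, with Benjamini-Hochberg adjustment over all of them. The fit was also run on simulated data in which most genes were left unchanged. That setting differs from this table, where 98.4% of tested genes were called, so it does not test the calls here. TPM ratios, GC content (GENCODE release 29, GRCh38; median over transcripts) and RefSeq promoter motifs were computed with Python 3.11.15 and pandas 2.3.3. The GC trend was a natural spline with 3 degrees of freedom. The 6 genes and all lists were chosen with earlier results of these data known; some list genes are not reported here. Other genes are named as the up to 6 tested members of a list with the largest change, or as nearest profiles. Alternatives were pseudocounts, filters, scaling, variance priors, a replicate block, the GC trend and leaving out each library.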

Additional observations from a re-analysis of the deposited data

How the results depend on the processing

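The 6 genes kept their direction and call under all 16 alternatives, but in the main fit 98.4% of tested genes were called either way. Removing the GC trend shrank the log2 fold changes to 2.22 for HMOX1, 0.72 for CEBPB and 0.29 for TRIB3. GDF15 then stood at 0.23 and CEBPG at -0.16, while BTG2 was at 1.33. Leaving out 1 library at a time gave log2 fold changes of 3.07 to 3.20 for HMOX1, 1.21 to 1.36 for TRIB3, 1.72 to 1.95 for CEBPB, -1.09 to -1.02 for CEBPG, 1.10 to 1.24 for GDF15 and 1.21 to 1.32 for BTG2. Median centring moved the median of all genes from -0.49 to -0.33, and the 6 genes by a like amount. With the GC trend removed, the difference in log2 CEBPB to CEBPG ratio was 0.88 in place of 2.94, and 512 genes were called higher and 506 lower in place of 789 and 836. Of the 14 other list genes called lower, 9 remained called lower, beside 31.1% of all genes called lower in that fit. MBTPS2 and CNOT10 turned sign there without a call (0.0758 and 0.0699), and MSRB3, CNOT7 and KDM3A lost theirs; the cause was not tested. A filter of 5 TPM left 438 genes called higher and 675 lower, out of 1117 tested. No filter gave 1128 and 915. With the replicate block, 790 genes were called higher and 832 lower. Deviations of same-numbered libraries correlated at 0.03, -0.09 and 0.01 over 1651 genes, so no pairing by number was seen across the table. With 3 libraries per group, these values cannot exclude a pairing. Depth is unknown, so whether it limits any value cannot be said.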
